A study of Rattus norvegicus with 15 samples.

Results

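A miRNA hairpin carries a mature sequence on each of its arms. One arm is usually loaded into an Argonaute protein and kept, and the other is mostly degraded. In the older nomenclature used on these arrays the less abundant arm carries an asterisk and is called the star strand; current names give the 5p or 3p side of the hairpin instead. A star strand that is kept has a seed (bases 2 to 8, which pair with target mRNAs) of its own, so it can address other targets than its partner. The 55 star miRNAs described here are all those on the array whose name ends in an asterisk, apart from miR-22*, miR-126* and miR-378*. They are 55 of 350 rat miRNAs measured, and the rule uses names only, not signals. Each of the 55 has a main arm on the array, and because some hairpins share a main arm these partners number 52.

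Hearts of male Sprague-Dawley rats were profiled on 15 one-colour arrays, 5 per group. Control rats (Veh) received vehicle. Rats with diabetes mellitus (DM) received 60 mg/kg streptozotocin into the tail vein, a toxin of pancreatic beta cells, and had plasma glucose above 300 mg/dL. Rats with glucose fluctuation (GF) were diabetic in the same way and were also starved for 24 h and injected intraperitoneally with 0.5 IU/kg insulin. Fasting, insulin and swings of glucose therefore cannot be told apart in GF. The labels used here give no age. Whole heart RNA was labelled, so fewer cells of a type and less of an RNA per cell cannot be told apart.

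Before any averaging, 5 pairs of arrays were found to agree within the error that the scanner software states, each pair from a single group (reduced chi-square from 0.252 to 0.565 over 156 miRNAs, against 1.01 to 7.88 in the other 100 pairs), and each pair was averaged and counted as 1 sample. This left 10 distinct samples. Each averaged pair had 1 array on each of the 2 slides, so the slides largely hold the same samples. In the order used below, the 4 control samples are replicates 1 with 3, 2, 4 and 5, the 3 DM samples are replicates 1, 2 with 4, and 3 with 5, and the 3 GF samples are replicates 1 with 5, 2 with 4, and 6. Control replicate 5 was closer to DM replicate 1 (1.17) than many arrays were to others of their own group. The labels do not say that each sample was a separate animal, so p-values measure the spread between these samples, which may be technical. The scanner software called 166 to 190 miRNAs detected per array, and 165 were bright enough to be tested. All 5 heart muscle miRNAs listed as markers (miR-1, miR-133a, miR-133b, miR-208 and miR-499) were above background on every array, and miR-122 of liver, miR-124 of neurons and miR-375 of pancreatic islets on none.

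Sequences are shown for the tested star strands, because their seeds are what separates them from their main arms. Of the 16 star strands that were tested, 12 could be matched by name to a RefSeq mature miRNA (GRCr8 assembly); miR-30e* and miR-30d* had no entry, and the array names of miR-296* and miR-7a* do not say which RefSeq sequence was meant. Seeds are in capitals, 5′ to 3′. The star strands on the 3p side are these.
let-7d*: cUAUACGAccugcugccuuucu
miR-30a*: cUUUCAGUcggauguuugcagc
miR-30c-1*: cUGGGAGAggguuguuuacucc
miR-30c-2*: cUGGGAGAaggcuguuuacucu
miR-140*: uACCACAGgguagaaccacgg
miR-322*: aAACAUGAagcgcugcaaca
miR-9*: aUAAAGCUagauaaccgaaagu
miR-99a*: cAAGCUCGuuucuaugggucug
miR-20a*: aCUGCAUUacgagcacuuaca
The star strands on the 5p side, and 2 main arms of the miR-29 family for comparison, are these.
miR-24-2*: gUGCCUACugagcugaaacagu
miR-29a*: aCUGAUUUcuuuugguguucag
miR-29c*: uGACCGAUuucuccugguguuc
miR-29a: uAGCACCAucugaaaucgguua
miR-29c: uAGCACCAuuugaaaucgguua

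The miR-29a and miR-29c main arms differ at 1 position and share a seed, whereas their star strands have different seeds. The 2 hairpins of miR-30c share a main arm. Their star strands are encoded on chromosome 5 (139634467 to 139634488) and chromosome 9 (33253735 to 33253756). The 2 star strands differ at 3 of 22 positions outside a common seed. These are the only members of the 12 that share a seed, so the 12 carry 11 distinct seeds. The other places of origin in GRCr8 are chromosome 17 for let-7d* (16322327 to 16322348), chromosome 9 for miR-30a* (33233987 to 33234008), chromosome 19 for miR-140* (52375353 to 52375373) and for miR-24-2* (40859517 to 40859538), and chromosome X for miR-322* (137726162 to 137726181). Further, miR-99a* lies on chromosome 11 (29687441 to 29687462), miR-20a* on chromosome 15 (98588354 to 98588374), miR-29a* on chromosome 4 (60618006 to 60618027) and miR-29c* on chromosome 13 (109099374 to 109099395), and miR-9* is encoded by 3 genes, Mir9-1, Mir9-2 and Mir9-3. The hairpins of miR-30a and miR-30c-2 are neighbours, 19670 bases apart.

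The base at the 5′ end differed between the arms. U was the first base of 2 of the 12 matched tested star strands and of 4 of 19 matched star strands that were not tested, and C was first in 5 and in 9. Among the matched main arms, U was first in 7 of 10 partners of tested stars and in 12 of 17 partners of other stars. GC content did not separate tested from untested star strands: its median was 50% in both, from 31.8% to 57.1% in the tested and from 27.3% to 63.6% in the others. The matched main arms had medians of 40.9% and 42.9%.

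Most star strands gave no measurable signal in the rat heart. Testing required a probe well above background on 3 or more of the 5 arrays of some group, and 16 of the 55 star strands met this (29.1%), against 149 of the 295 other miRNAs on the array (50.5%) and 38 of the 52 main arms (73.1%). Per array, 13 to 17 star strands were above background in control hearts (median 14), 14 to 17 in DM (median 16) and 14 to 18 in GF (median 16), ranges that overlap. All 3 star strands outside the rule, miR-22*, miR-126* and miR-378*, were above background on every array.

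Of the 16 tested, 13 were above background on all 15 arrays: let-7d*, miR-7a*, miR-9*, miR-24-2*, miR-29a*, miR-29c*, miR-30a*, miR-30c-1*, miR-30c-2*, miR-30e*, miR-99a*, miR-140* and miR-322*. The other 3 entered the test through the diabetic groups. miR-296* was above background on 2 control, 5 DM and 5 GF arrays, miR-30d* on 2, 3 and 4, and miR-20a* on 1, 2 and 3. Of the 39 that were not tested, miR-151* was above background on 2 control, 2 DM and 1 GF array and miR-181a* on 2 control, 0 DM and 2 GF arrays.

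The remaining 37 were above background on 0 of 15 arrays. They were let-7b*, let-7e* and let-7i*; miR-106b* and miR-25* of the miR-106b-25 cluster; miR-23a*, miR-27a* and miR-24-1* of the miR-23/27/24 clusters; miR-29b-1* and miR-29b-2*; miR-99b* and miR-125b*; the imprinted Dlk1-Dio3 stars miR-136*, miR-323*, miR-376a*, miR-379*, miR-382* and miR-543*; and miR-1*, miR-21*, miR-26b*, miR-28*, miR-34c*, miR-101a*, miR-124*, miR-129*, miR-135a*, miR-138*, miR-193*, miR-196a*, miR-204*, miR-218*, miR-330*, miR-338*, miR-363*, miR-708* and miR-872*. Not being above background on this array is a limit of detection and does not show absence. The scanner software's own call per miRNA, which is laxer, left 31 of the 55 undetected on every array and had 16 detected on every array.

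Many untested star strands had a bright partner. The main arm was tested for 26 of the 39 untested star strands and was above background on all arrays for 24, and for 13 it lay at or above the 75th percentile of the tested miRNAs. The signal of miR-1, the most heart-typical of them, averaged 15.82 on the log2 scale over the 10 samples while miR-1* stayed at the floor of 4.30, the value given to signals too dim to measure. Mean main-arm signals of 15.10 for miR-29b, 14.46 for miR-23a, 13.52 for miR-21 and 13.25 for miR-27a likewise stood beside star strands at the floor. For 12 of the untested star strands neither arm was above background on any array.

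**Figure D1:**
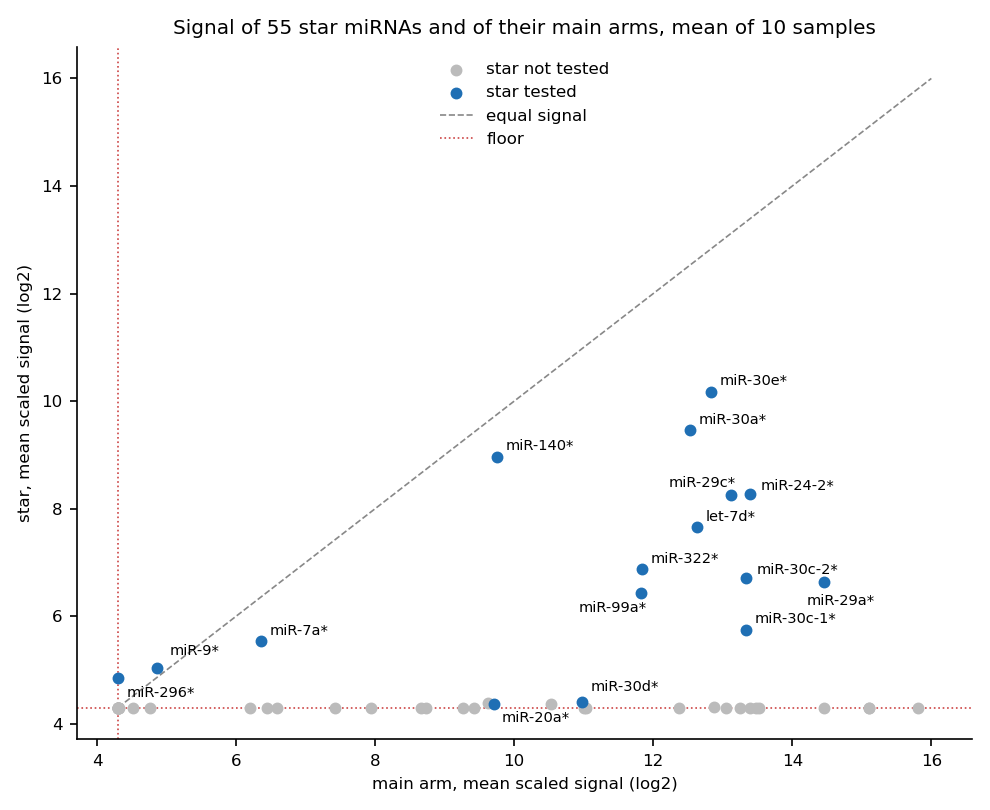
Mean scaled signal (log2) of each of the 55 star miRNAs (vertical axis) against that of its main arm (horizontal axis) over 10 distinct samples; dotted lines mark the floor of 4.30 and the dashed line equal signals. Tested star miRNAs are blue and named; most of the others lie on the floor whatever the signal of their main arm, up to 15.82 for miR-1, and only miR-9* and miR-296* lie above the dashed line.

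Which arm of a family was seen depended on the hairpin. All 5 miR-30 stars on the array were tested, with mean log2 signals of 10.18 for miR-30e*, 9.46 for miR-30a*, 6.70 for miR-30c-2*, 5.75 for miR-30c-1* and 4.41 for miR-30d*. Only 1 of 4 let-7 stars was, let-7d* at 7.66, although let-7b and let-7i main arms were at 12.88 and 12.38, near the 12.63 of let-7d. In the miR-29 family miR-29a* (6.64) and miR-29c* (8.26) were tested. miR-29b-1*, whose hairpin lies 291 bases from that of miR-29a, and miR-29b-2*, 447 bases from miR-29c, were not above background on any array. miR-24-2* averaged 8.27, while miR-24-1*, with the same seed and 5 other positions of 22 that differ, was at the floor; both share the main arm miR-24. miR-99a* and miR-99b* also share a seed and differ at 3 positions, and the first averaged 6.43 and the second lay at the floor. Probes bind with different strength, so these signals order brightness and not amounts, and cross-binding between such related sequences was not tested. None of the 6 Dlk1-Dio3 stars could be tested.

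Where both arms of a hairpin were tested, in 15 pairs, the difference between the signals of star and main arm (the arm log ratio, star minus main arm on the log2 scale) had a median of -4.97 and ran from -7.82 to 0.18. The main arm was over 10 times brighter in 10 pairs. The widest gap was in miR-29a, with a star signal of 6.64 and a main-arm signal of 14.45, and miR-30c-1* (ratio -7.58) and miR-30c-2* (-6.63) followed. miR-30a* (-3.07), miR-30e* (-2.66), miR-7a* (-0.82) and miR-140* (-0.79) were closer to their partners. For miR-9*, from a family best known in the nervous system, the star was brighter on average, at 0.18 ± 0.16 (SD, n = 10), and in 8 of 10 samples; both arms were dim, at 5.05 and 4.87. In the total gene signal, a sum over all probes of a miRNA, miR-9* was again the only star brighter than its partner, by 0.69. For miR-296 only the star could be measured: it averaged 4.86, and the main arm was above background on 0 arrays.

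In 10 of the 15 pairs the SD of the arm log ratio over the 10 samples was smaller than that of the star strand alone. The median SD was 0.13 for the ratio and 0.14 for the star strand. The ratio could still vary more than the main arm, as in miR-30a (SD 0.09 against 0.06). Correlation between the arms was not computed, and variation common to all miRNAs of a sample was not set apart. The clearest case of a smaller SD was miR-140*, whose SD was 0.31 alone and 0.15 as a ratio. Its values were 8.65, 8.65, 8.72 and 9.49 in control samples, 9.25, 9.28 and 8.71 in DM and 9.20, 8.79 and 8.96 in GF. Control replicate 5 was the brightest of all, and the groups overlap throughout; the miR-140 main arm was also among its highest there, at 10.16.

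No star strand passed the threshold between any pair of groups over the 10 distinct samples. In GF against control hearts 0 of 16 star strands passed (limma, Benjamini-Hochberg over the 165 tested miRNAs, adjusted p under 0.05), where 7.88% of all tested miRNAs did; 2 had an unadjusted p under 0.05. In the fit that takes all 15 arrays as independent 3 of 16 passed, miR-29a* and miR-296* higher and miR-99a* lower, against 36.4% of all tested miRNAs (12.7% higher and 23.6% lower). In DM against control hearts 0 passed in either fit (1 unadjusted in each), where 0.0% and 1.82% of all did. In GF against DM hearts 0 passed in either fit (0 and 2 unadjusted), where 0.0% and 3.64% of all did. The 3 comparisons share samples. The median log2 difference of the star strands was 0.01 in GF minus control, 0.04 in DM minus control and -0.07 in GF minus DM, beside -0.05, 0.03 and -0.08 over all tested miRNAs. These medians move with the scaling of the arrays, for star strands and for all miRNAs alike. Without scaling they were 0.33, -0.05 and 0.36 for the star strands beside 0.25, -0.10 and 0.35 over all, with the 75th percentile over all probes 0.12, 0.05 and 0.07 beside 0.08, 0.04 and 0.04, with quantile normalization 0.10, 0.03 and 0.07 beside 0.04, 0.00 and 0.04, and with normexp -0.08, 0.19 and -0.26 beside -0.10, 0.12 and -0.20. No direction is therefore given for the star strands as a group. Under the scaling used here the median size of a difference, whatever its sign, was 0.09, 0.09 and 0.08, beside 0.17, 0.11 and 0.12 over all.

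**Figure D2:**
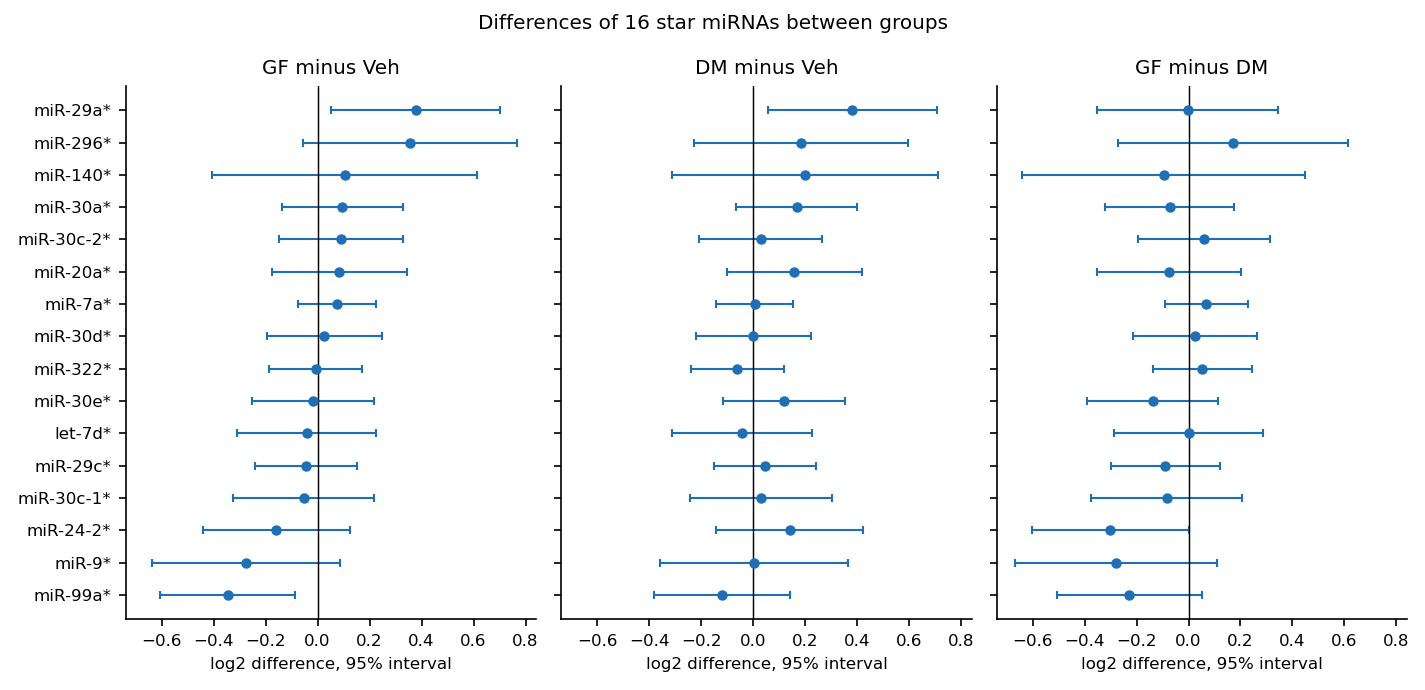
Log2 differences of the 16 tested star miRNAs in 3 contrasts over 10 distinct samples (4 Veh, 3 DM, 3 GF), points with 95% intervals from limma. Intervals of most members span 0; those of miR-29a* and miR-99a* in GF minus Veh and of miR-29a* in DM minus Veh do not, before adjustment over the 165 tested miRNAs.

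miR-29a*, the star strand of a hairpin whose main arm is known for repressing collagen mRNAs, was brighter in both diabetic groups without passing the test. Its log2 signal was 6.37, 6.18, 6.41 and 6.68 in control samples, 6.98, 6.87 and 6.53 in DM and 6.95, 6.62 and 6.79 in GF. In this miRNA 2 of the 3 DM and 2 of the 3 GF samples lay above every control sample, and control replicate 5 reached into both diabetic groups. GF exceeded control by 0.38 (SE 0.15, limma adjusted p = 0.121) and DM exceeded control by 0.38 (SE 0.15, adjusted p = 0.468), and GF minus DM was 0.00 with a 95% interval from -0.35 to 0.34. Without control replicate 5, GF minus control was 0.47 (adjusted p = 0.0483). Leaving out the highest control sample raises the difference by itself, so this is no support for a rise. Within slides, GF minus control was 0.47 and 0.33, but the slides share samples and are not separate replicates. The main arm miR-29a also tended upward in GF, by 0.31 (adjusted p = 0.157), so the arm log ratio differed little, by 0.07 ± 0.11 (SE).

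miR-296* was 4.61, 4.40, 4.65 and 5.11 in control samples, 5.09, 4.68 and 4.87 in DM and 5.33, 5.03 and 4.78 in GF. Control replicate 5 again lay among the diabetic samples, and the other 3 control samples lay below all of them. GF minus control was 0.36 (SE 0.18, adjusted p = 0.216) over distinct samples and 0.43 (SE 0.14, adjusted p = 0.0335) over 15 arrays. All values are near the floor of 4.30, and on 3 of the 5 control arrays the probe was not well above background. This star strand was tested only because it was measurable in the diabetic groups, where it is brighter, so its passing over 15 arrays is no independent support. With the normexp background correction the difference was -0.04, so neither its size nor its direction is settled.

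miR-99a* was the star strand with the lowest adjusted p. It was 6.53, 6.62, 6.50 and 6.65 in control samples, 6.40, 6.61 and 6.35 in DM and 6.37, 5.95 and 6.36 in GF. Every GF sample lay below every control sample, and the merged GF replicates 2 and 4 were lowest. GF minus control was -0.35 (SE 0.12, adjusted p = 0.0870) over distinct samples and -0.37 (SE 0.10, adjusted p = 0.0128) over 15 arrays. Within slides, which share samples, it was -0.45 and -0.31. Over 23 alternative runs, with other processing or 1 sample left out, it ran from -0.42 to -0.03. The difference passed in 3 of these runs, each a fit of all 15 arrays, so its size depends on the processing. The main arm miR-99a had a control mean of 11.89 ± 0.08 (SD, n = 4) and a GF mean of 11.73 ± 0.14 (SD, n = 3). That difference of -0.16 did not pass (limma adjusted p = 0.227), and the GF and control samples of the main arm overlapped. miR-7a* was the other star strand whose GF and control samples did not overlap, GF being higher by only 0.08 (adjusted p = 0.488). This made 2 of 16 star strands without overlap, where 26.7% of all tested miRNAs had none. In DM against control and in GF against DM the groups overlapped in every star strand (0 of 16 apart), where 6.06% and 14.5% of all tested miRNAs were apart.

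**Figure D3:**
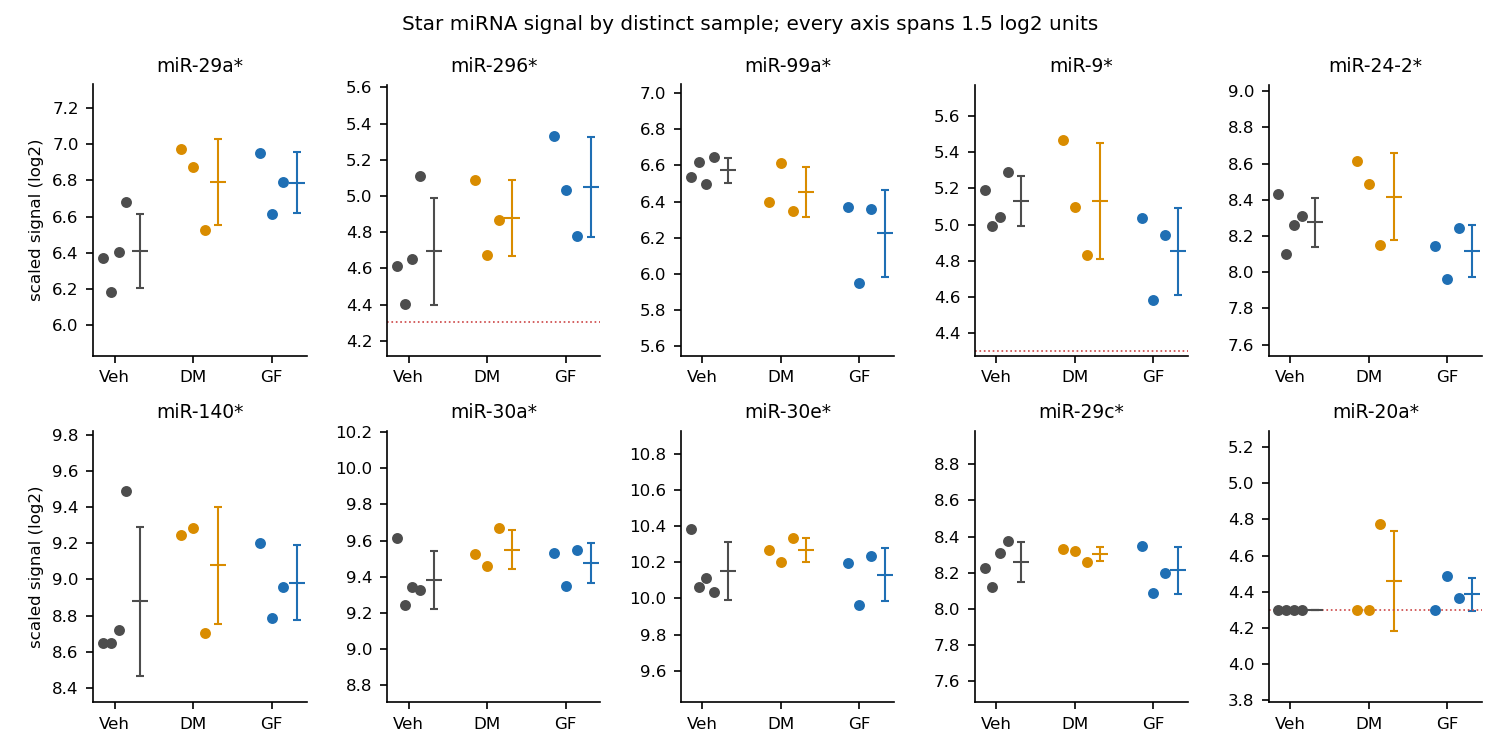
Scaled signal (log2) of 10 star miRNAs in every distinct sample; points are samples (4 Veh, 3 DM, 3 GF), bars beside them the mean and SD, and the dotted line is the floor. Groups overlap in each panel, apart from GF against Veh for miR-99a*, and miR-20a* lies at the floor in all 4 Veh samples.

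Under the scaling used here, miR-9* and miR-24-2* had the largest differences between GF and DM among the star strands. Over 23 alternative runs these differences ran from -0.49 to 0.17 in miR-9* and from -0.43 to 0.15 in miR-24-2*. Each was positive in 2 of the runs, so neither direction is settled. miR-9* was 5.19, 4.99, 5.04 and 5.29 in control samples, 5.47, 5.10 and 4.83 in DM and 5.04, 4.58 and 4.94 in GF. GF minus DM was -0.28 (SE 0.17, adjusted p = 0.489) and GF minus control -0.28 (SE 0.16, adjusted p = 0.268), and the groups overlap in both. miR-24-2*, from a hairpin 40 bases from that of miR-27a, was 8.43, 8.10, 8.26 and 8.31 in control samples, 8.61, 8.49 and 8.15 in DM and 8.15, 7.96 and 8.24 in GF. In DM, 2 samples were the brightest of the 10 and the third lay within the GF range; GF minus DM was -0.30 (SE 0.14, adjusted p = 0.418).

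The 2 brightest star strands varied little between groups. miR-30e* was 10.39, 10.06, 10.11 and 10.04 in control samples, 10.27, 10.20 and 10.33 in DM and 10.19, 9.96 and 10.23 in GF. miR-30a* was 9.61, 9.24, 9.34 and 9.33 in control samples, 9.52, 9.46 and 9.67 in DM and 9.53, 9.35 and 9.55 in GF. In both, the merged control replicates 1 and 3 stood above the other control samples and within or above the DM range. Differences of the 5 miR-30 stars ran from -0.05 to 0.10 in GF minus control and from 0.00 to 0.17 in DM minus control, and 0 of 5 passed in either fit. The 95% interval of miR-30a* in DM minus control, -0.07 to 0.40, does not exclude a moderate rise.

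The other tested star strands showed small differences. let-7d*, miR-30c-1*, miR-30c-2*, miR-30d*, miR-322* and miR-7a* had log2 differences between -0.08 and 0.09 in all 3 contrasts. Their standard errors were from 0.07 to 0.13. miR-322*, partner of the miR-15/16-like miR-322, had one of the narrowest intervals, -0.19 to 0.17 in GF minus control, around means of 6.90 ± 0.07 (SD, n = 4) and 6.90 ± 0.08 (SD, n = 3).

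The authors' deposited table of 3 groups lists 35 of the 149 miRNAs they kept (23.5%), and 4 of the 13 star strands among those 149. The authors' deposited table gives an uncorrected p-value of 0.000216 for miR-296*, 0.00658 for miR-29a*, 0.0320 for miR-7a* and 0.0367 for miR-30c-2* over the 3 groups. The authors' deposited table has all 4 higher in GF than in control hearts, with log2 fold changes of 0.67, 0.65, 0.53 and 0.44, and lists them among 30 of 149 miRNAs (20.1%) for that pair. For DM against GF the authors' deposited table lists 20 (13.4%), 3 of them star strands (not miR-29a*), and for control against DM 5 (3.36%), 0 of them star strands. Those values were not scaled between arrays. Without scaling, the median of all tested miRNAs in GF minus control was 0.25 over distinct samples, and it was -0.05 after scaling. After scaling, the differences of miR-7a* and miR-30c-2* were 0.08 and 0.09. These also rest on the brightest probe and 10 distinct samples, while the authors' values are total gene signals over 15 arrays. Scaling is therefore not the only thing that differs.

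The arm log ratio asks whether star and main arm changed unequally. In GF against control hearts 1 of 15 star pairs passed over distinct samples, miR-20a* against miR-20a, where 3.85% of the 26 hairpins with both arms tested passed (limma, adjusted over the 26). The star strand of that pair was at the floor in all 4 control samples, so it is not a measured unequal change of the arms. With the filter that keeps arms above background on every array the pair was not tested, and 0 of 13 star pairs passed. Over 15 arrays miR-29c* against miR-29c passed too, 2 of 15, where 7.69% of all did. In DM against control and in GF against DM 0 pairs passed in either fit, where 0.0% of all did; 0 and 1 had an unadjusted p under 0.05 over distinct samples, and 0 and 4 over 15 arrays. GF and control samples did not overlap in 4 of 15 star pairs, where 30.8% of the 26 did not, in 0 of 15 for DM against control (3.85% of the 26) and in 3 of 15 for GF against DM (19.2% of the 26).

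The ratio of miR-20a* to miR-20a, arms of a hairpin of the proliferation-linked miR-17-92 cluster, was -5.12, -5.19, -5.08 and -5.32 in control samples, -5.39, -5.38 and -5.15 in DM and -5.46, -5.70 and -5.53 in GF. All GF samples lay below all others. GF minus control was -0.38 (SE 0.09, adjusted p = 0.0414). The main arm alone rose in GF by 0.47 (SE 0.11, adjusted p = 0.0367). With a wider limit of 1.418 for merging arrays, which left 8 samples, 0.0% of all tested miRNAs passed in GF against control, miR-20a included. The star strand entered the test only through GF. It was 4.78 in the third DM sample and 4.49 and 4.37 in 2 GF samples. The 4.37 is that of GF replicate 6, where the miR-20a* probe was not well above background. The star strand lay at the floor in all 4 control samples, in 2 DM samples and in 1 GF sample. The control ratios are therefore the floor minus the signal of miR-20a, which makes them upper bounds. Neither the size nor the direction of the difference in ratio is settled, and what was measured is the main-arm signal, higher in GF over the 10 distinct samples. With total gene signal the difference was 0.40, in the other direction, and it did not pass (adjusted p = 0.547). It also missed the threshold without control replicate 2 or 4, without DM replicate 1, without the merged DM replicates 2 and 4, and without any 1 of the GF samples, with adjusted p from 0.0559 to 0.265.

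For miR-29c the ratio was -4.80, -4.68, -4.73 and -4.90 in control samples, -4.82, -4.78 and -4.93 in DM and -5.0, -5.10 and -4.93 in GF. Every GF value was below every control and DM value, by a narrow margin against DM replicates 3 and 5. GF minus control was -0.23 (SE 0.07, adjusted p = 0.133) over distinct samples and -0.25 (SE 0.06, adjusted p = 0.0102) over 15 arrays. miR-29c* itself was 8.23, 8.12, 8.31 and 8.38 in control samples, 8.33, 8.32 and 8.26 in DM and 8.35, 8.09 and 8.20 in GF, a difference of -0.05 (SE 0.09), while the main arm had means of 13.04 in control and 13.22 in GF samples. Both arms were above background on every array.

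In miR-99a the ratio was lower in all GF than in all control samples, with means of -5.50 and -5.32 (adjusted p = 0.182). In miR-9 it was higher in all GF samples, at 0.33, 0.28 and 0.35 against 0.24, -0.04, -0.09 and 0.13 in control samples (difference 0.26, SE 0.10, adjusted p = 0.182); the miR-9 main arm lay at the floor in 1 of the 3 GF samples, so that ratio is a lower bound there. In miR-140 the 3 GF ratios (-0.75, -0.66 and -0.69) all exceeded the 3 DM ratios (-0.93, -0.87 and -0.88), a difference of 0.20 that did not pass (SE 0.11, adjusted p = 0.575). In miR-29a the DM samples fell apart, with ratios of -7.54, -7.53 and -7.95 against -7.95 to -7.82 in control samples. DM minus control was 0.23 (adjusted p = 0.551). Without the merged DM replicates 3 and 5, the sample that stood apart, it was 0.36 (adjusted p = 0.0189). That value follows from leaving out the lowest DM sample and is no support for a difference. With the mean of all probes DM minus control was -0.04.

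**Figure D4:**
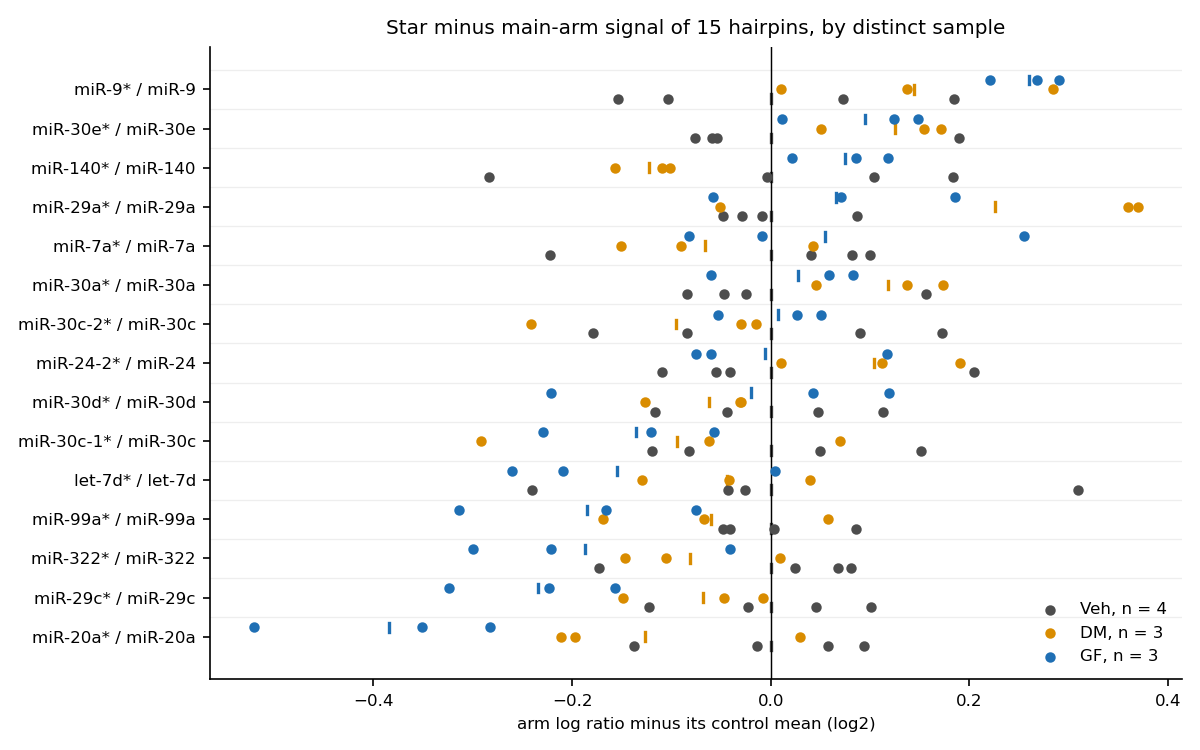
Arm log ratio (star minus main-arm signal, log2) of 15 hairpins, minus its mean over the control samples; points are distinct samples (4 Veh, 3 DM, 3 GF) and short bars are group means. GF points lie left of all Veh points for miR-20a, miR-29c and miR-99a and right of them for miR-9, and the miR-29a DM samples split 2 against 1.

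GF and control arrays did not overlap in the summed signal of the epithelial, endothelial and red cell markers, and no test was run on these sums. The ranges are over all 15 arrays, repeat arrays included. Over the 10 distinct samples, 26.7% of all tested miRNAs did not overlap between GF and control. The summed log2 signal of the 5 epithelial markers, of which miR-429 was above background on no array and 1 was above background on all, ran from 6.75 to 7.54 on control, 7.33 to 8.86 on DM and 8.54 to 9.0 on GF arrays. The 3 endothelial markers, of which miR-222 was never above background, summed to 14.19 to 14.54 on control, 14.01 to 14.31 on DM and 13.87 to 14.07 on GF arrays, and the 2 red cell markers to 12.58 to 12.84 on control, 11.75 to 12.59 on DM and 12.15 to 12.53 on GF arrays. The 5 heart muscle markers overlapped between all groups, at 16.92 to 17.38 on control, 16.92 to 17.10 on DM and 16.73 to 17.06 on GF arrays. The smooth muscle markers did too, at 13.51 to 14.20 on control, 13.83 to 14.05 on DM and 13.73 to 14.25 on GF arrays. So did the leukocyte markers, at 12.10 to 12.18 on control, 11.88 to 12.24 on DM and 11.81 to 12.10 on GF arrays. The part of any of these cell types in the differences of the star strands was not tested.

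Of the star strands outside the rule, miR-22* was lower in GF by 0.56 (adjusted p = 0.0194), past the threshold, the control mean being 8.48 ± 0.13 (SD, n = 4) and the GF mean 7.91 ± 0.19 (SD, n = 3); miR-126* and miR-378* had differences of -0.28 and -0.08 that did not pass. The main arms of the 55 members had a median difference of -0.06 in GF minus control, and 2 of 38 tested passed over distinct samples, miR-20a and miR-101a, both higher. With further arrays merged into 8 samples 0.0% of all tested miRNAs passed in GF minus control, so miR-22*, miR-20a and miR-101a did not pass there.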

How the data were processed

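Rat heart miRNAs were read on one-colour arrays with Agilent Feature Extraction 9.5.3.1, per the file headers and the submitters' processing notes. The deposited array files hold background-subtracted intensity per spot, with no scaling across arrays, together with a per-miRNA total. The authors' deposited table of 149 miRNAs holds log2 values relative to the control mean, and the authors' deposited comparison tables hold a p-value and log2 fold changes per miRNA. The sources used here do not name the software behind those tables.

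Spots flagged as outliers were dropped (153 to 294 per array; 0 were saturated). Processed signals were scaled to the 75th percentile over the 254 probes above background on all 15 arrays, spots were averaged per probe, the brightest probe stood for each miRNA, and dim signals were set to a floor (4.30: on each array the dimmest scaled probe above background was found, and the median of these taken). Differences were fitted with limma 3.58.1 (R 4.3.3; lmFit and eBayes, two-sided) over the 3 groups, on 10 distinct samples and, as an alternative, on 15 arrays, with Benjamini-Hochberg adjustment over all 165 miRNAs or all 26 arm pairs and a threshold of 0.05. The limit of 1 that defines repeat arrays was chosen with earlier results known, and the fit was tested on simulated data. For the normexp alternative the median and not the mean spot signal was used, since the array files hold the median. Python 3.11.15 with numpy 2.4.6, matplotlib 3.10.9 and pandas 2.3.3 produced the tables and plots. The number of arrays limits the precision.

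The members and lists were chosen with earlier results of these data known. Every tested member is named. Values per sample are given for members past the threshold in either fit, for up to 5 with the largest difference in each contrast, and for members whose arm ratio passed. Star names were assigned to RefSeq 5p or 3p sequences by hand where the main arm is known.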

Additional observations from a re-analysis of the deposited data

Results flagged for a closer look

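Only the 4 distinct control samples were enough for a check of single samples that stand apart (Dixon's ratio of the gap to the range, above its 95% critical value), and 3 of 31 sets of control values were picked out; chance picks out about 1 in 20. miR-140* in control replicate 5 was 9.49, above the other control samples at 8.65 to 8.72. miR-30c-1* in control replicate 2 was 5.54, below the others at 5.81 to 5.84. The arm log ratio of miR-30e in the merged control replicates 1 and 3 was -2.53, above the others at -2.80 to -2.78.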

How the results depend on the processing

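The numbers of star strands past the threshold in DM against control and in GF against DM were 0 under every alternative run. In GF against control, over distinct samples 0, it was 3 over 15 arrays (36.4% of all tested miRNAs passed), 2 with replicate number as a block (30.3%), 3 with slide as a block (34.5%), 2 without scaling between arrays (10.9%), 1 with quantile normalization (6.06%) and 0 to 1 when leaving out 1 distinct sample. With further arrays merged, 0 star strands and 0.0% of all tested miRNAs passed. Arm log ratios of star pairs past the threshold in GF against control, over distinct samples 1 (3.85% of all 26 pairs passed), numbered 2 over 15 arrays (7.69%). They numbered 2 with the replicate block and 3 with the slide block. They numbered 0 with further arrays merged, with the 75th percentile over all probes, without scaling, with quantile normalization, with normexp, with total gene signal, with the authors' values, which do not hold miR-20a*, and with the filter on all arrays, which leaves miR-20a* untested, and 0 to 2 when leaving out 1 distinct sample. For DM against control they numbered 0 to 1 when leaving out 1 sample, and for GF against DM 4 with normexp. The cause was not tested. For settings without a percentage the share of all tested miRNAs, or of all 26 pairs, is not given. Those counts, of star strands and of pairs, cannot be read against it. Of the differences past the threshold over distinct samples or under some alternative, 4 changed direction under another: in GF minus control the ratio of miR-20a* to miR-20a (0.40 with total gene signal), miR-296* (-0.04 with normexp) and the ratio of miR-99a* to miR-99a (0.00 with the mean of all probes), and in DM minus control the ratio of miR-29a* to miR-29a (-0.04 with the mean of all probes). Samples with the same replicate number did not deviate together throughout (correlations from -0.53 to 0.47), so the number is not taken as a pairing. miR-20a*, miR-30d* and miR-296* lie near background, which limits their values.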

Other observations

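The number of probes on the array went with detection. Of the 41 star strands with 4 probes 8 were tested, and of the 14 with 2 or 3 probes 8 were. The 16 tested star strands together gave 0.592% to 0.658% of the summed scaled signal of all tested miRNAs on control arrays, 0.675% to 0.704% on DM arrays and 0.630% to 0.699% on GF arrays. DM and control arrays did not overlap in this share, with repeat arrays included, and no test was run on it. The 5 DM arrays hold 3 distinct samples and the 5 control arrays hold 4. The share is set mainly by the few brightest star strands and by the main arms in the total.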
